A study of Homo sapiens with 7 samples.

Results

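The 8q24 region holds MYC, a transcription factor that drives growth and cell division, in a stretch of the genome with few protein-coding genes and many long noncoding RNAs (lncRNAs). The values of 8 genes of this region were described: the lncRNAs CCAT1, CASC19, CASC21, CASC8, CASC11 and PVT1, the gene MYC, and POU5F1B, a retrogene copy of the pluripotency factor POU5F1 (OCT4). They were chosen by name and position, and they hold 37 of the 196354 transcripts in the data, which were summed to 69727 genes and single transcripts. The data are RNA-seq of a pair of cell lines grown from squamous carcinoma of the esophagus, TE5 and KYSE140. TE5 cells carried a non-targeting scramble shRNA or an shRNA against TP63, SOX2 or CCAT1 (4 libraries), and KYSE140 cells carried scramble, TP63 or SOX2 shRNA (3 libraries). All shRNAs, the scramble control included, were delivered in a lentiviral vector, and the labels name 1 hairpin per target. There was 1 library per condition, so no value here has a replicate check, and the 95% intervals given are exact (Clopper-Pearson) intervals that cover counting error only.

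TP63 and SOX2 are master transcription factors of squamous epithelium, and the comparison of each knockdown with scramble addresses which genes depend on them. CCAT1 is a lncRNA first named in colon cancer, and it lies in a region of dense enhancers upstream of MYC. PVT1 lies downstream of MYC and is often gained in copy together with it, and CASC11 starts on the opposite strand beside the MYC promoter. MYC acts as a dimer with MAX, and genes of ribosome assembly and nucleotide synthesis are among its known targets.

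The order of the members along hg19 chromosome 8 was CASC19, CCAT1, CASC8 with CASC21 and POU5F1B inside its span, CASC11, MYC and PVT1. CASC19 covered 128084939 to 128200455 and CCAT1 covered 128216657 to 128231483, both on the reverse strand. CASC8 covered 128302053 to 128494384 on the reverse strand. Within its span, but on the forward strand, lay CASC21 (128351392 to 128404879) and POU5F1B (128421271 to 128432311). CASC11 (128698588 to 128746213, reverse strand) started 1.47 kb before MYC (128747680 to 128753680, forward strand). PVT1 (128806781 to 129113502, forward strand) started 59.1 kb beyond the MYC start. No exon base was shared between transcripts of different members as drawn in the current annotation, which also gave the spans above. The transcripts counted often differ from it in length. The lengths matched for 0 of 1 transcript each of CCAT1, CASC21 and POU5F1B, and for 4 of 20 of PVT1. They matched for 1 of 3 of CASC11, 1 of 2 of CASC19, 3 of 4 of CASC8 and 4 of 5 of MYC. Sharing of exon bases between the transcripts as counted was therefore not tested. The current annotation counts the CCAT1 transcript as CASC19-201 and the CASC21 transcript as PCAT1-206, and these were set apart here by their position. The sources used here do not say whether the libraries kept strand, so reads from CASC8 introns could not be told from those of genes on the other strand.

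**Figure D1:**
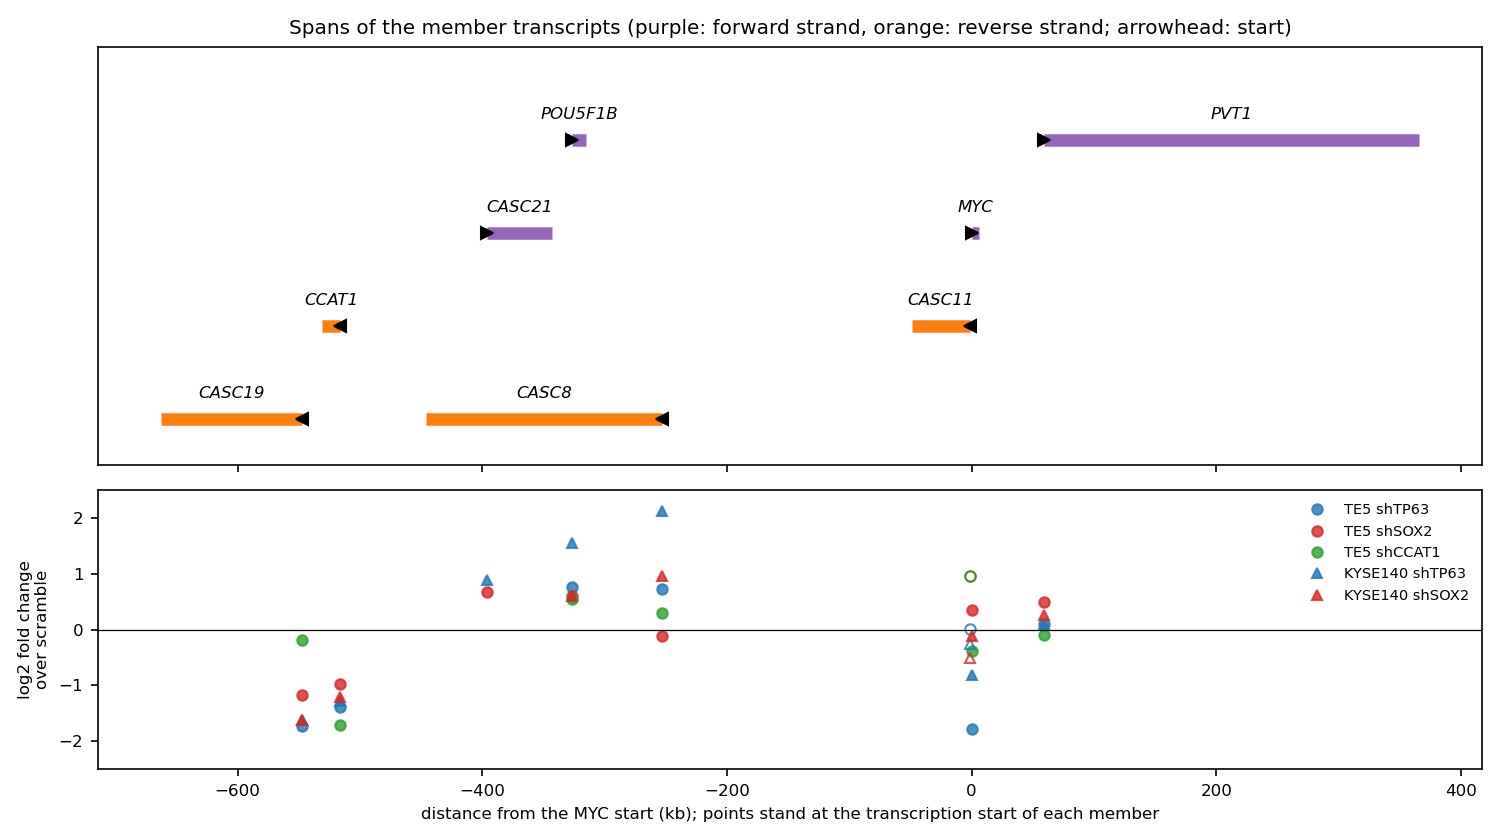
Upper panel: span of the transcripts of each member, in kb from the MYC start, coloured by strand. Lower panel: log2 fold change over scramble of each member at its transcription start, 1 point per pair of libraries (circles TE5, triangles KYSE140; CASC11 has hollow points because it starts 1.47 kb from MYC; CASC21 is shown only in the pairs where it had enough counts). CCAT1 and CASC19 lie together on the left and are below 0 in all 5 pairs, but CASC19 upon CCAT1 silencing is at -0.18 (-0.68 to 0.32). CASC8 and POU5F1B, between them and MYC, reach 2.13 and 1.55 in KYSE140 upon TP63 silencing.

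The libraries held between 68532611 and 98036494 estimated counts. The silenced genes were checked first. TP63 stood at 25.4% of its scramble level in TE5 and 26.1% in KYSE140 in the shTP63 libraries. SOX2 stood at 39.6% in TE5 and 77.4% in KYSE140 in the shSOX2 libraries, so that the SOX2 knockdown in KYSE140 was shallow. The 13 squamous markers summed to between 1521 and 2373 TPM in TE5 and between 14045 and 33140 TPM in KYSE140, and in TE5 the basal keratin KRT14 was at 0.20 to 0.55 TPM. The 15 matched markers of other cell types summed to between 43.2 and 158 TPM, with 10 to 13 of them under 1 TPM in each library. CD68 was at 48.6 to 116 TPM in TE5 and 2.57 to 14.6 TPM in KYSE140, and COL1A1 at 12.6 to 44.4 TPM. CDX2 was at 5.70 to 12.1 TPM in TE5 and 0 in KYSE140, and CDH5 was at 1.70 to 8.36 TPM in TE5. In TE5 shTP63 cells 6 of the 11 markers of other cell types with enough counts were higher past a fold of 2 (median log2 fold change 1.60). This stood beside 14.9% of all genes, and the part of these markers in the results was not tested. The run names put the scramble library of each line in a lane apart from its knockdown libraries, and in TE5 also on another flow cell. Whatever all knockdowns of a line share against scramble therefore cannot be told apart from the lane.

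In the scramble libraries, MYC was the most abundant member per length in both lines, at 98.5 TPM in TE5 and 84.4 TPM in KYSE140. TPM takes the length of each transcript into account, so it compares genes only as well as the lengths used hold. PVT1 followed at 59.8 and 41.6 TPM. In TE5 the next were CASC8 at 8.85, CASC19 at 5.72 and CCAT1 at 4.94 TPM. In KYSE140 CASC8 stood below the other two, with CASC19 at 14.7, CCAT1 at 14.4 and CASC8 at 1.90 TPM. CASC21, CASC11 and POU5F1B were the least abundant, at 1.33, 0.48 and 0.06 TPM in TE5 and 0.68, 0.52 and 0.12 TPM in KYSE140. With 1 library per line, neighbours in this order such as CASC19 and CCAT1 cannot be ranked beyond their spread. Their order also rests on length. In TE5 scramble cells CASC19-202, a transcript of 367 bases, was at 5.49 TPM from 59 counts. CCAT1, with 2131 bases, was at 4.94 TPM from 532 counts.

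Between the scramble libraries, measured as normalized counts (gene counts scaled between libraries by the TMM method), CCAT1 was at 1848 in KYSE140 and 563 in TE5. This is a log2 ratio of 1.71 (95% interval 1.57 to 1.86). CASC19 was higher in KYSE140 by a similar ratio, 1.58 (1.17 to 2.04). CASC8 was lower in KYSE140, at 99.8 against 410 normalized counts, a log2 ratio of -2.03 (-2.42 to -1.67). POU5F1B was at 40.2 against 19.3, a log2 ratio of 1.02 (0.18 to 2.01), which is within a fold of 2 with a pseudocount of 10. MYC and PVT1 were close in the lines, with log2 ratios of -0.05 and -0.22. Of 7 members with enough counts, 3 were higher and 1 was lower past a fold of 2, and of all 22790 genes 22.2% were higher and 27.2% lower.

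Upon TP63 silencing, CCAT1, CASC19 and MYC were lower in both lines and CASC8 and POU5F1B were higher, while PVT1 stayed near its scramble level. CCAT1 had 563, 214, 286 and 173 normalized counts in TE5 scramble, shTP63, shSOX2 and shCCAT1 cells, and 1848, 761 and 797 in KYSE140 scramble, shTP63 and shSOX2 cells. All 5 knockdown libraries lay below the scramble library of their line. Relative to scramble, CCAT1 stood in shTP63 cells at 37.9% (TE5) and 41.2% (KYSE140), with log2 fold changes of -1.39 (-1.62 to -1.19) and -1.28 (-1.41 to -1.15). Upon SOX2 silencing it was at 50.7% and 43.1%, with log2 fold changes of -0.98 (-1.20 to -0.77) and -1.21 (-1.35 to -1.07). In TE5 shCCAT1 cells CCAT1 was at 30.6% of scramble, a log2 fold change of -1.70 (-1.94 to -1.47).

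**Figure D2:**
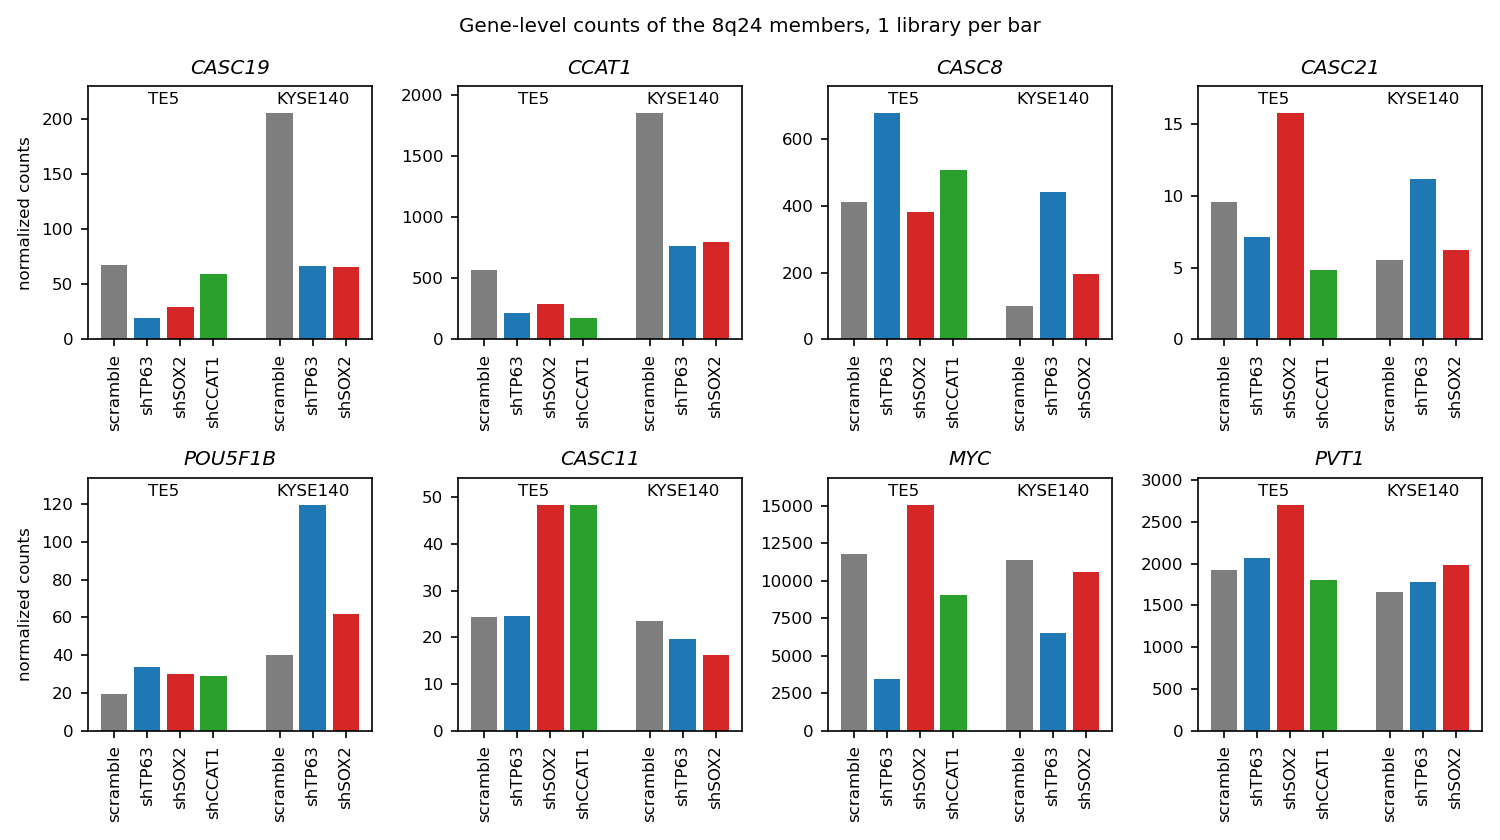
Normalized counts of each member (vertical axis, from 0, a scale of its own in each panel) in the 7 libraries, 1 bar per library and no error bar since each condition had 1 library. CCAT1 is highest in the scramble bar of each line (563 and 1848), MYC is lowest in the shTP63 bar of each line (3434 and 6488), and CASC8 is highest in the shTP63 bar of each line (677 and 441).

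CASC19, the lncRNA next to CCAT1 on the same strand, had 67.7, 19.8, 29.4 and 59.7 normalized counts in TE5 scramble, shTP63, shSOX2 and shCCAT1 cells. In KYSE140 it had 205 in scramble, 66.2 in shTP63 and 65.9 in shSOX2 cells. It was thus lower than scramble upon TP63 and SOX2 silencing in both lines, but close to scramble upon CCAT1 silencing. The log2 fold changes were -1.73 (-2.51 to -1.09) and -1.62 (-2.06 to -1.21) upon TP63 silencing in TE5 and KYSE140, and -1.18 (-1.90 to -0.54) and -1.62 (-2.12 to -1.18) upon SOX2 silencing. Upon CCAT1 silencing it was -0.18 (-0.68 to 0.32), an interval that does not overlap that of CCAT1 in the same pair. Transcript CASC19-202, which lies nearest to CCAT1, held between 84.5% and 100% of the CASC19 counts. Taken alone, it had log2 fold changes of -1.67 and -1.46 in shTP63 cells, -1.06 and -1.61 in shSOX2 cells, and -0.14 in shCCAT1 cells.

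MYC had 11766, 3434, 15060 and 9036 normalized counts in TE5 scramble, shTP63, shSOX2 and shCCAT1 cells, and 11392, 6488 and 10547 in KYSE140 scramble, shTP63 and shSOX2 cells. The shTP63 library was the lowest in each line, and the shSOX2 library was the highest in TE5 but not in KYSE140. Upon TP63 silencing MYC was at 29.2% of scramble in TE5 and 57.0% in KYSE140, log2 fold changes of -1.78 (-1.83 to -1.73) and -0.81 (-0.86 to -0.77), of which the second was within a fold of 2. Upon SOX2 silencing the log2 fold change was 0.36 (0.32 to 0.39) in TE5 and -0.11 (-0.16 to -0.07) in KYSE140. Upon CCAT1 silencing MYC was at 76.8% of scramble, -0.38 (-0.42 to -0.34). All 4 MYC transcripts with at least 10 counts were lower upon TP63 silencing in both lines. MYC-202 and MYC-205 held most of the counts, 56.0% to 64.1% and 34.9% to 42.7% of them. In shTP63 cells MYC-202 stood at -1.90 (TE5) and -0.76 (KYSE140) on the log2 scale, and MYC-205 at -1.59 and -0.90.

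CASC8 had 410, 677, 381 and 507 normalized counts in TE5 scramble, shTP63, shSOX2 and shCCAT1 cells, and 99.8, 441 and 197 in KYSE140 scramble, shTP63 and shSOX2 cells. The shTP63 library was the highest in each line. In KYSE140 CASC8 was at 442% of scramble upon TP63 silencing, a log2 fold change of 2.13 (1.78 to 2.52), and in TE5 at 165%, 0.72 (0.55 to 0.90). Upon SOX2 silencing it was at 0.97 (0.57 to 1.40) in KYSE140 and -0.10 (-0.32 to 0.11) in TE5 on the log2 scale, and upon CCAT1 silencing at 0.31 (0.12 to 0.49). These values came from 1 transcript, CASC8-201, which held 87.0% to 98.7% of the counts, with log2 fold changes in shTP63 cells of 0.86 (TE5) and 2.31 (KYSE140). CASC8-202 and CASC8-203, which both start further upstream, were not higher in the same pairs. CASC8-203 was at 25.6 and 5.05 normalized counts in TE5 scramble and shTP63 cells and at 9.12 and 0.62 in KYSE140, and CASC8-202 was at 24.7 and 12.4 in TE5 and at 3.9 and 1.6 in KYSE140.

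POU5F1B, which lies inside CASC8-201 on the other strand, had few counts: 19.3, 33.7, 30.0 and 28.8 normalized counts in the TE5 libraries, in the order above, and 40.2, 120 and 62.1 in KYSE140. All 5 knockdown libraries lay above the scramble library of their line. Its log2 fold change upon TP63 silencing was 1.55 (0.98 to 2.20) in KYSE140 and 0.77 (0.01 to 1.72) in TE5, and the other 3 values, from 0.55 to 0.61, had intervals that held 0. Of the 31-base words of POU5F1B, 19.4% also occur in some other gene, and the 14.8% that occur in POU5F1 are part of these. These are shares of words, not of reads. They were taken from the sequence of the current annotation, whose length differs from that of the transcript counted. A second transcript, ENST00000391675, is not named in the annotations used here, but its length and that of the first add up to the exon length the study lists for POU5F1B. With it added, an alternative chosen after the data were seen, the value in KYSE140 upon TP63 silencing was 0.74, under a fold of 2, and those in TE5 upon TP63 and CCAT1 silencing were 1.17 and 1.38, past it.

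**Figure D3:**
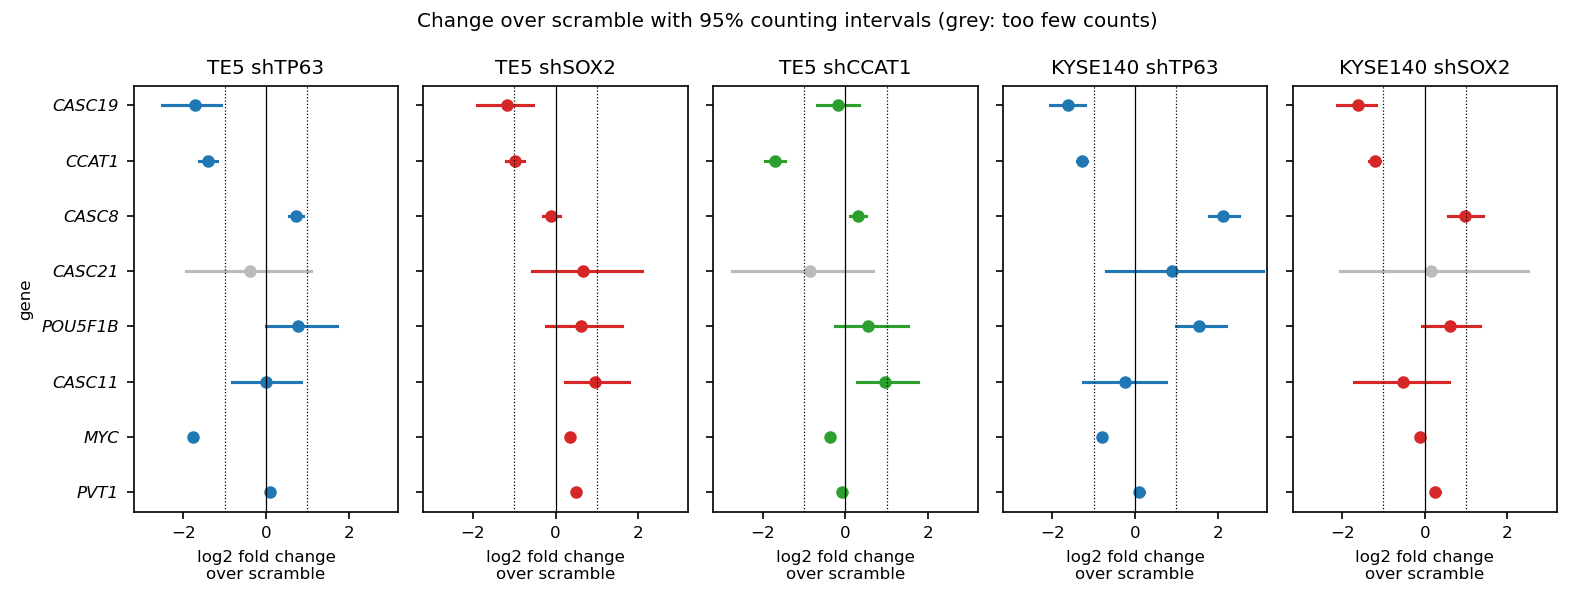
Log2 fold change over scramble (horizontal axis) of each member in the 5 pairs of libraries, with its 95% counting interval as a line; dotted lines mark a fold of 2 at -1 and 1, and grey marks CASC21 where both libraries had fewer than 10 counts. CCAT1 lies between -1.70 and -0.98 in the 5 panels, MYC reaches -1.78 only in TE5 shTP63 cells, and the intervals of CASC21 and CASC11 are wide.

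PVT1, the lncRNA with the most transcripts, had 1928, 2064, 2705 and 1807 normalized counts in TE5 scramble, shTP63, shSOX2 and shCCAT1 cells, and 1659, 1783 and 1985 in KYSE140 scramble, shTP63 and shSOX2 cells. The spread was small beside that of MYC. Its log2 fold changes were 0.10 in both lines upon TP63 silencing, 0.49 (0.40 to 0.58) in TE5 and 0.26 (0.15 to 0.37) in KYSE140 upon SOX2 silencing, and -0.09 upon CCAT1 silencing, which became 0.08 when libraries were scaled by total counts. Of its 20 transcripts, 17 had at least 10 counts in some library. By the current annotation, 10 transcripts start within 2000 bases of the gene start, toward MYC. They held 24.2% to 34.5% of PVT1 counts, and the other 10 held the rest. Upon SOX2 silencing in TE5 both groups were higher, at 0.68 (0.53 to 0.84) for the first and 0.39 (0.29 to 0.50) for the second. In KYSE140 the first group was at 0.00 (-0.21 to 0.21) and the second at 0.35 (0.23 to 0.48). Upon TP63 silencing the first group was at -0.08 (-0.25 to 0.08) in TE5 and -0.19 (-0.39 to 0.01) in KYSE140, intervals that held 0. The second group was at 0.17 (0.07 to 0.27) and 0.21 (0.09 to 0.34).

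Single PVT1 transcripts differed more than their sum. Of the 17 transcripts, 3 (PVT1-207, PVT1-208 and PVT1-217) were above scramble in all 5 pairs, and of these PVT1-208 had intervals above 0 in all 5, with values from 0.58 to 1.20 on the log2 scale. It had 47.1, 94.5, 92.5 and 71.0 normalized counts in TE5 scramble, shTP63, shSOX2 and shCCAT1 cells and 43.0, 84.4 and 99.9 in KYSE140. Upon TP63 silencing 4 of the 17 (PVT1-201, PVT1-202, PVT1-209 and PVT1-212) were below scramble in both lines and 6 were above it in both. Intervals lay below 0 in both lines for PVT1-201 and PVT1-209, and above 0 in both for 4 transcripts. PVT1-201 was at -0.73 (-1.04 to -0.42) and -0.47 (-0.86 to -0.09). Upon SOX2 silencing 14 of 17 transcripts were above 0 in TE5 and 12 in KYSE140, where 50.6% and 44.3% of all genes were below 0. Shares over all transcripts were not computed, so the counts of PVT1 transcripts have no baseline of their own and are a description. The transcripts named here were chosen after their values were seen, and counts of transcripts that share exons are estimates of the pseudoaligner.

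**Figure D4:**
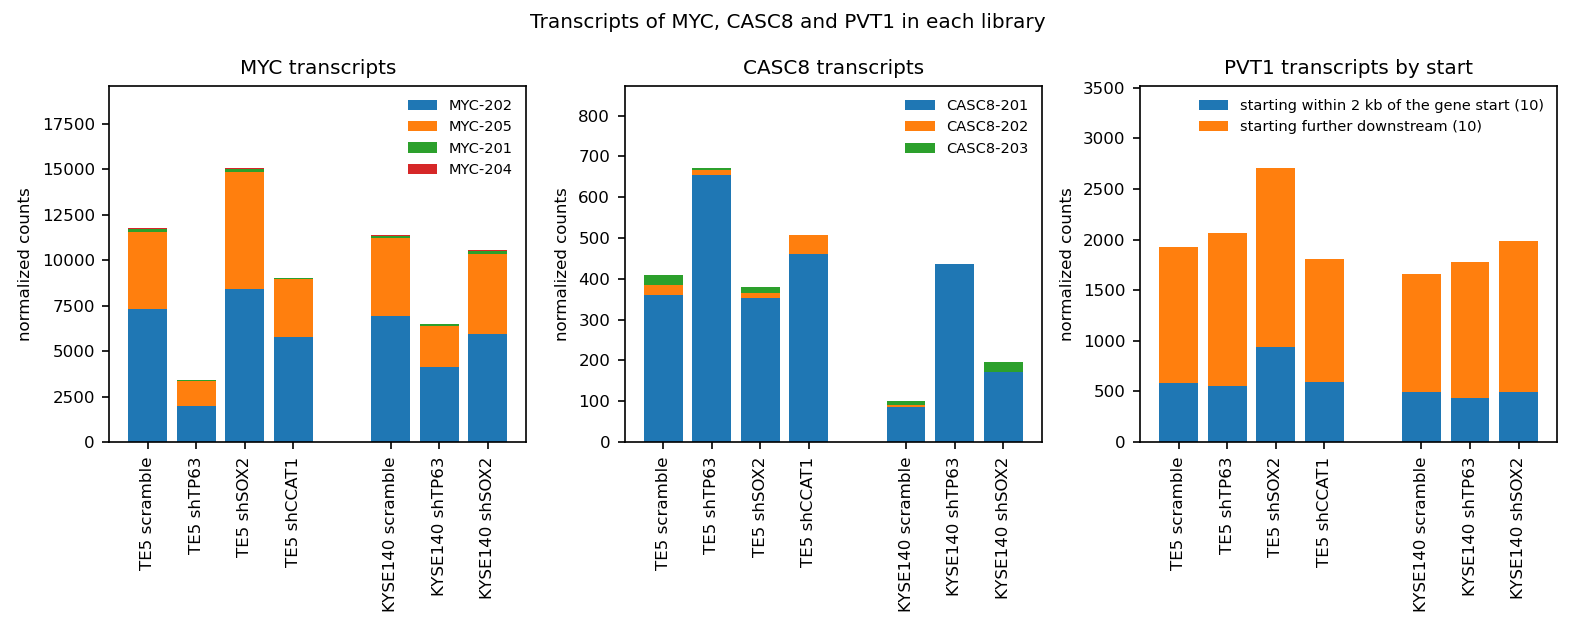
Normalized counts (vertical axis, from 0) in the 7 libraries, stacked by transcript for MYC and CASC8 and by start for PVT1; each bar is 1 library, without error bars. MYC-202 and MYC-205 are both shortest in the TE5 shTP63 bar (1956 and 1413), CASC8 is nearly all CASC8-201, and the PVT1 transcripts with downstream starts make up most of every bar.

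CASC11 and CASC21 were too low to be followed. CASC11, which starts beside the MYC promoter, had 24.3, 24.5, 48.3 and 48.4 normalized counts in TE5 scramble, shTP63, shSOX2 and shCCAT1 cells, and 23.6, 19.6 and 16.2 in KYSE140. Its log2 fold change was 0.96 upon both SOX2 and CCAT1 silencing in TE5, with intervals of 0.24 to 1.78 and 0.28 to 1.75, and -0.52 (-1.71 to 0.59) upon SOX2 silencing in KYSE140. CASC21 had between 4.8 and 15.7 normalized counts and reached 10 estimated counts in 2 of the 5 pairs, where its values, 0.67 and 0.90, had intervals that held 0.

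The members past a fold of 2 were then set beside all genes. Upon TP63 silencing in TE5, 3 of the 7 members with enough counts (CCAT1, CASC19 and MYC) were lower and 0 were higher, and of all 24406 genes 5.61% were lower and 14.9% higher. In KYSE140, 2 of 8 were lower (CCAT1 and CASC19) and 2 were higher (CASC8 and POU5F1B), and of all genes 4.28% were lower and 9.08% higher. With the further POU5F1B transcript, POU5F1B passed upon TP63 and CCAT1 silencing in TE5 and no longer in KYSE140, so that 4, 2 and 3 members passed in TE5 shTP63, TE5 shCCAT1 and KYSE140 shTP63 cells. Upon SOX2 silencing in TE5, 1 of 8 was lower (CASC19), with 4.95% of all genes lower and 6.31% higher, and this count became 0 with a pseudocount of 10. In KYSE140, 2 of 7 were lower (CCAT1 and CASC19), with 6.18% of all genes lower and 7.08% higher. Upon CCAT1 silencing, 1 of 7 was lower (CCAT1 itself), with 6.05% of all genes lower and 11.9% higher, and CASC11 passed a fold of 2 as well when libraries were scaled by total counts.

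The knockdown libraries of a line shared a lane, and ratios between them leave the lane out. In TE5, MYC was lower in shTP63 than in shSOX2 cells, with a log2 ratio of -2.13 (-2.18 to -2.08), and higher in shCCAT1 than in shTP63 cells, 1.40 (1.35 to 1.45). CCAT1 was lower in shTP63 than in shSOX2 cells by a smaller ratio, -0.42 (-0.67 to -0.17). CCAT1 in shCCAT1 cells was at -0.31 (-0.57 to -0.04) against shTP63 cells and at -0.72 (-0.99 to -0.46) against shSOX2 cells. Both values were within a fold of 2. CASC19 was higher in shCCAT1 than in shTP63 cells, 1.55 (0.92 to 2.31), and than in shSOX2 cells, 1.00 (0.38 to 1.71). In KYSE140, CCAT1 and CASC19 did not differ beyond counting error between shTP63 and shSOX2 cells, at -0.07 (-0.22 to 0.08) and 0.00 (-0.53 to 0.55). MYC was at -0.70 (-0.75 to -0.66) and CASC8 at 1.16 (0.90 to 1.43) in the same pair. Past a fold of 2 in either direction were 2 of 8 members in the first TE5 pair (MYC and the sparse CASC21), 2 of 7 in the second, 1 of 8 in shCCAT1 against shSOX2 cells (CASC21) and 1 of 8 in KYSE140, beside 20.6%, 24.6%, 20.3% and 17.1% of all genes.

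With both lines in 1 edgeR quasi-likelihood fit of 6 libraries, which takes the cell lines as replicates, 0 of 7 members passed a Benjamini-Hochberg adjusted p of 0.1 upon TP63 silencing, and 0 of 30172 genes and transcripts did (0%). TP63 itself, the silenced gene, did not pass, with an adjusted p of 0.287 in this edgeR fit. At an unadjusted p under 0.05 there were 4 members (CCAT1, CASC19, MYC and CASC8), beside 11.1% of all features. Upon SOX2 silencing 0 members passed in edgeR, beside 0.00331% of features, and 2 (CCAT1 and CASC19) had an unadjusted p under 0.05, beside 7.45%. In this edgeR fit the CCAT1 estimates were -1.33 ± 0.21 (SE) for the TP63 shRNA, with an adjusted p of 0.303, and -1.12 ± 0.21 (SE) for the SOX2 shRNA, with an adjusted p of 0.537. Each SE was worked out here as the size of the estimate over the square root of its F statistic. It is not a spread measured between replicates. The MYC estimates in edgeR were -1.23 ± 0.35 (SE), with an adjusted p of 0.367, and 0.13 ± 0.34 (SE), with an adjusted p of 0.957. The MYC estimate for the TP63 shRNA was -0.72 without the TE5 shTP63 library and -1.90 without the KYSE140 shTP63 library, and that of CASC8, 1.40, ranged from 0.83 without the KYSE140 scramble library to 2.04 without the TE5 scramble library.

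The call of CCAT1 turned on the choice of fit. In an edgeR fit of genes only, without the transcripts that could not be assigned, CCAT1 passed upon TP63 silencing (log2 fold change -1.33, adjusted p = 0.0890), beside 0.939% of 23439 genes, and upon SOX2 silencing it did not (adjusted p = 0.208). In the DESeq2 fit of the same counts, 3 members passed upon TP63 silencing: CCAT1 (-1.37, adjusted p = 1.42e-06), MYC (-1.27, adjusted p = 0.00735) and CASC8 (1.36, adjusted p = 0.0459), beside 13.5% of features. Only 4 members had an adjusted p in that contrast, since DESeq2 gave none for CASC19, POU5F1B, CASC11 and CASC21. CASC19 was at -1.73 there. Upon SOX2 silencing DESeq2 passed CCAT1 (-1.13, adjusted p = 0.000332), beside 4.38% of features.

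Genes around MYC in function were listed for comparison, with earlier results of these data known. Of 60 known MYC target genes, 57 were below their scramble level upon TP63 silencing in TE5, where MYC was lowest, with a median log2 fold change of -0.66. Below 0 in this pair were 45.7% of all genes, with a median of 0.07, and 64.9% of the 9288 genes with at least 1000 counts in both libraries, with a median of -0.15. Past a fold of 2, 6 of 60 were lower, beside 5.61% of all genes. They were TCOF1, a factor of ribosomal RNA transcription, at -1.37, EXOSC5 of the RNA exosome at -1.12, CCND2 (cyclin D2) at -1.39, the folate carrier SLC19A1 at -1.10, the pseudouridine synthase PUS1 at -1.06 and FBL (fibrillarin) at -1.03. Of these, only TCOF1 and EXOSC5 were picked by the rule for naming list members (lowest or highest mean over the pairs), and the other 4 were named after their values were seen. In KYSE140, where MYC was at 57.0%, 30 of the 60 were below 0, with a median of 0.00, beside 44.9% of all genes and 53.5% of genes with at least 1000 counts, and TCOF1 was at -0.77. Of the 13 squamous markers, 12 were below 0 in that TE5 pair (median -0.57) and 11 in KYSE140 (median -0.64). TP63, the gene silenced in these pairs, and SOX2 were among the 13. Upon SOX2 silencing, 7 of 13 were below 0 in TE5 (median -0.02) and 1 of 13 in KYSE140 (median 0.44), beside 50.6% and 44.3% of all genes. The part of the markers in these values was not tested.

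Upon CCAT1 silencing in TE5, 51 of the 60 MYC targets were below 0, with a median of -0.28. Below 0 in this pair were 48.2% of all genes and 65.0% of genes with at least 1000 counts, whose median was -0.10. All 13 squamous markers were below 0 in it as well, with a median of -0.47. Scaling by total counts moved the median of the targets to -0.11, since it moved all genes up by 0.17. Upon SOX2 silencing the medians were -0.07 in TE5 and 0.07 in KYSE140, with 36 and 22 of 60 below 0, beside 54.0% and 41.8% of genes with at least 1000 counts. The highest targets by their mean over the pairs were the nucleoside transporter SLC29A2 and MPHOSPH10 of the small-subunit processome, which ranged from -0.08 to 0.46 and from -0.03 to 0.36. The only target past a fold of 2 in the other 3 pairs was TERT, the telomerase catalytic subunit, chosen here after its values were seen. It had 18.2, 92.2 and 7.0 normalized counts in TE5 scramble, shSOX2 and shCCAT1 cells and 221 and 91.6 in KYSE140 scramble and shSOX2 cells.

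Partners and cofactors of MYC were counted next. The 12 genes of the MAX network had medians between -0.09 and 0.12 in the 5 pairs, and MAX, the obligate partner of MYC, lay between -0.04 and 0.20. Single members of the network ranged more widely. By mean over the pairs, MLXIPL and MXI1 were the lowest (-0.90 and -0.88 upon TP63 silencing in TE5) and MXD1 and MYCN the highest. MYCN, a paralog of MYC, was at 193, 367 and 269 normalized counts in KYSE140 scramble, shTP63 and shSOX2 cells. It was under 9 in every TE5 library. MYCL, another paralog, was at -1.17 upon TP63 silencing in TE5. The naming rule picked neither MAX nor MYCL. Past a fold of 2 in that pair, 1 of the 12 was lower and 1 was higher, beside 5.61% and 14.9% of all genes. The 16 cofactors and turnover factors had a median of -0.41 upon TP63 silencing in TE5 and -0.02 in KYSE140. Genes with at least 1000 counts had medians of -0.15 and -0.02. In that TE5 pair 12 of the 16 were below 0, beside 64.9% of genes with at least 1000 counts. Past a fold of 2, 1 of 16 was lower, beside 5.61% of all genes. WDR5, a chromatin cofactor of MYC, was at -1.02 in TE5 and -0.18 in KYSE140, and the AAA+ ATPase RUVBL2 was at -0.66 and -0.31. FBXW7, which marks MYC for degradation, was at 0.28 and -0.04, and the deubiquitinase USP36 was at -0.08 and 0.31.

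**Figure D5:**
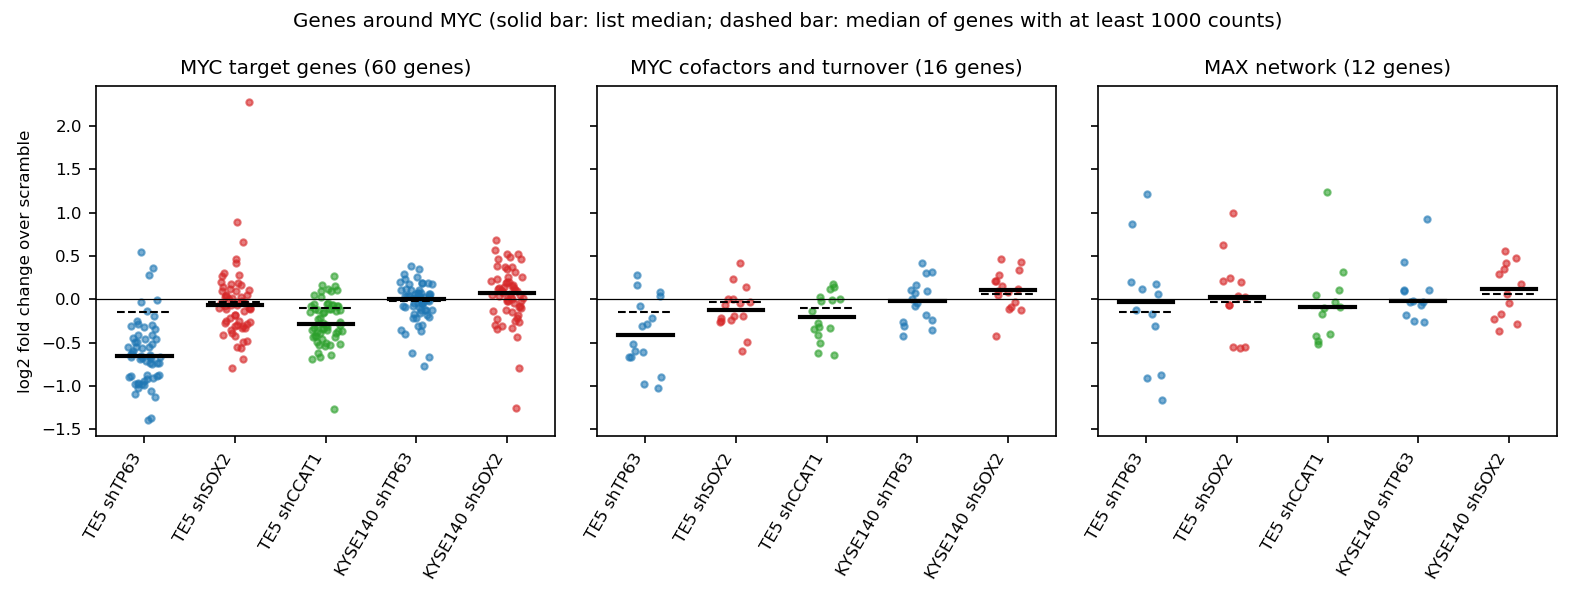
Log2 fold change over scramble (vertical axis) of the MYC target genes, the MYC cofactors and turnover factors and the MAX network in the 5 pairs of libraries, 1 point per gene with sideways jitter. Solid bars are list medians and dashed bars the medians of genes with at least 1000 counts in both libraries: the targets stand at -0.66 against -0.15 in TE5 shTP63 cells and at 0.00 against -0.02 in KYSE140 shTP63 cells.

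Other lncRNAs and relatives of POU5F1 were listed as well. Of 15 cancer-associated lncRNAs of other regions, 14 were matched, and their medians lay between -0.11 and 0.15. DANCR and HOTTIP were the lowest by mean (DANCR at -1.37 upon TP63 silencing in TE5 and -0.06 in KYSE140), and H19 and NEAT1 the highest. POU5F1 itself had 355, 290, 369 and 457 normalized counts in TE5 scramble, shTP63, shSOX2 and shCCAT1 cells and 284, 324 and 138 in KYSE140, so that its log2 fold change in KYSE140 was 0.19 upon TP63 silencing, where POU5F1B was at 1.55, and -1.04 upon SOX2 silencing. POU5F2 lay between -0.74 and 0.86, and of the 5 annotated pseudogenes of POU5F1 only POU5F1P3 reached 10 counts, in 1 pair.

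The genes around the members were then counted. Of 231 other annotated genes that start between 120000000 and 140000000 of chromosome 8, 106 had at least 10 counts in some library. Their medians lay between -0.03 and 0.16 in the 5 pairs. Past a fold of 2 upon TP63 silencing, 4 of 93 were lower and 17 higher in TE5, and 3 of 79 were lower and 15 higher in KYSE140. Of all genes, 5.61% were lower and 14.9% higher in that TE5 pair, and 4.28% and 9.08% in that KYSE140 pair. Upon SOX2 silencing 7 of 85 were lower and 8 higher in TE5 (4.95% and 6.31% of all genes), and 9 of 72 were lower and 7 higher in KYSE140 (6.18% and 7.08%). Upon CCAT1 silencing 5 of 88 were lower and 12 higher (6.05% and 11.9%). Upon TP63 silencing MAL2, a membrane traffic protein of epithelial cells, was higher in both lines (1.13 and 1.21), as were the sparse FAM135B and the lncRNA ENSG00000254028. Upon SOX2 silencing DSCC1, a sister-chromatid cohesion factor, was lower in both (-1.01 and -1.26) and the sparse DEPTOR-AS1 was higher (1.01 and 1.32). For no other neighbour did both lines pass a fold of 2 the same way upon the same silencing.

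The genes whose 5 log2 fold changes were most like those of CCAT1, among the 12147 genes that reached 100 counts in each of the libraries, were GDF1, SH2D5 and VIT, with root mean square differences of 0.45, 0.48 and 0.49. Those most like MYC were closer, LMAN1, PSAT1 and SAMD4B, at 0.18, 0.19 and 0.19. PSAT1, an enzyme of serine synthesis, was at -1.54 and -0.56 upon TP63 silencing in TE5 and KYSE140. The 5 values share 2 scramble libraries, so that likeness over them is a description.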

How the data were processed

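Total RNA was sequenced. Reads were pseudoaligned to Ensembl transcripts (hg19) with Kallisto by the authors, whose deposited values are unscaled estimated counts and TPM per transcript. Of 196354 transcripts, 182863 were assigned to genes with GENCODE 44 mapped to hg19 (93.4% to 93.7% of counts) and the others were kept singly. CCAT1 and CASC21, which GENCODE merges with neighbours, were assigned by overlap with RefSeq. Gene sums of counts were scaled by TMM (edgeR 4.0.16, R 4.3.3), and log2 fold changes used a pseudocount of 1. Genes needed 10 counts in either library of a pair, and pairs were given no p-value. The joint fit used edgeR's quasi-likelihood test on rounded counts of 6 libraries with cell line as block (2 residual degrees of freedom), filterByExpr, and a Benjamini-Hochberg adjusted p under 0.1, with DESeq2 1.42.0 as an alternative. CASC21 did not pass its filter. The fit with unassigned transcripts was run first and a fit of genes only afterwards, and both were seen before the first was kept. The script was tested on simulated counts with less spread between libraries than the fit found in these data (common dispersion 0.141). That test therefore does not show how well the fit performs here. Named were every member, the 2 lowest and 2 highest of each list by mean log2 fold change, the 3 genes most like CCAT1 and MYC, and neighbours past a fold of 2 in both lines. Members and lists were chosen with earlier results of these data known.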

Additional observations from a re-analysis of the deposited data

Results flagged for a closer look

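MYC had log2 fold changes of opposite sign upon SOX2 silencing in the lines, 0.36 in TE5 and -0.11 in KYSE140. The KYSE140 value is small, at 92.6% of scramble. Of all genes, 78.3% had a lower log2 fold change than MYC in that TE5 pair and 35.1% in that KYSE140 pair. With 1 library per condition the difference was not tested. The directions stayed opposite with DESeq2 size factors, total counts, a pseudocount of 10 and TPM values. These alternatives use the same libraries, so they do not measure the spread between libraries. SOX2 itself was at 39.6% of scramble in TE5 and 77.4% in KYSE140.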

How the results depend on the processing

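The 40 log2 fold changes of members over scramble were recomputed with other scalings, pseudocounts, TPM values and transcript sets. Of 185 values, 168 lay within the counting interval of the reported one and 17 outside it, and 0 were called in the opposite direction. The number of members past a fold of 2 went from 1 to 0 in TE5 shSOX2 cells with a pseudocount of 10, and from 1 to 2 in TE5 shCCAT1 cells with total counts. With the further POU5F1B transcript, chosen after seeing the data, it went from 3 to 4 in TE5 shTP63, from 1 to 2 in TE5 shCCAT1 and from 4 to 3 in KYSE140 shTP63 cells. Between knockdown libraries, alternatives chosen after seeing the data gave 1 in place of 2 for TE5 shTP63 over shSOX2 (total counts, and a pseudocount of 10). They gave 2 (total counts and TPM) or 0 (pseudocount of 10) in place of 1 for TE5 shCCAT1 over shSOX2, and 2 in place of 1 for KYSE140 (total counts). Total counts moved the median of all genes by 0.14 in TE5 shTP63, 0.17 in TE5 shCCAT1 and -0.10 in KYSE140 shSOX2 cells, and with it the MAX network medians of TE5 shTP63 and shCCAT1 cells turned to 0.11 and 0.08 and the median of other lncRNAs in TE5 shTP63 cells to 0.03.

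In the joint fit, DESeq2 called 3 members and 2228 features upon TP63 silencing and 1 member and 886 features upon SOX2 silencing, where edgeR called 0 and 0, and 0 and 1. Genes only, an alternative chosen after seeing the data, gave 1 member and 220 genes, and 0 members and 34 genes. The labels give no replicate number, so every library was numbered 1 here. The lines served as the block: without the replicate block 0 features were called for either silencing. Leaving out each library in turn gave 0 members and 0 features. Over these fits the estimate of CASC11 ranged from -0.58 to 0.35 upon TP63 silencing and from -0.51 to 0.91 upon SOX2 silencing, that of CASC8 upon SOX2 silencing from -0.20 to 1.01, and that of MYC upon SOX2 silencing from -0.41 (without TE5 shSOX2) to 0.58 (without KYSE140 shSOX2), so their directions turned on 1 library. Upon TP63 silencing MYC ranged from -1.90 to -0.72, CASC8 from 0.83 to 2.04, POU5F1B from 0.82 (without KYSE140 shTP63) to 1.56 and PVT1 from 0.02 (without TE5 scramble) to 0.17 (without KYSE140 scramble). Upon SOX2 silencing PVT1 ranged from 0.22 (without TE5 shSOX2) to 0.49 and POU5F1B from 0.39 (without TE5 shSOX2) to 0.86. The lone sample of an arm was then assumed to vary like the others. Low counts limit CASC21, CASC11 and POU5F1B.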
